A study of Mus musculus with 12 samples.

Results

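Liver handles triglyceride in both directions: it packs fat into very low density lipoprotein (VLDL) for export, and it takes fatty acids and lipoprotein remnants back from blood. Apolipoprotein B and the microsomal triglyceride transfer protein build the VLDL particle, lipases of the lipoprotein lipase family cut its triglyceride and phospholipid, angiopoietin-like proteins hold lipoprotein lipase in check, and receptors take up the products. The genes described here are 9 of these: Lpl and Lipc (lipases), Angptl4 and Angptl8 (inhibitors of lipoprotein lipase), Apob, Mttp and Apoa4 (lipoprotein assembly), and Vldlr and Cd36 (uptake). They were chosen by name, with earlier results of these data known. All 9 were found once each among the 48537 genes of the deposited table.

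Total RNA of 12 mouse livers, collected at zeitgeber time 10 (10 h into the light phase), was sequenced. REV-ERBalpha and REV-ERBbeta are nuclear receptors of the circadian clock that repress transcription. There were 3 groups of 4 livers: REV-ERB double-knockout livers that re-express REV-ERBalpha (titles name DKO and REV-ERBalpha-WT, here re-expression livers), REV-ERB double-knockout livers (titles name DKO and YFP, here livers labelled DKO), and control livers (titles name YFP and not DKO). Livers labelled DKO and control livers share YFP by their titles, and the column names of the table hold YFP for all 3 groups. The column names add Cre to YFP for the livers labelled DKO, so effects of Cre and of losing REV-ERB cannot be told apart here. For the re-expression livers the column names add WT and do not name Cre. Strain, age, sex, feeding state, the promoter that drives Cre and the vehicle of re-expression are not given in the sources used here. Each library held 5621667 to 6906221 reads recovered from its TPM values. The 8 hepatocyte markers summed to 39577 to 44577 TPM in re-expression livers, 39123 to 42356 TPM in livers labelled DKO and 40404 to 44990 TPM in control livers. Nr1d1, the gene of REV-ERBalpha, stood at 191 ± 22.4 TPM in re-expression livers, 82.5 ± 7.39 TPM in livers labelled DKO and 68.7 ± 5.53 TPM in control livers (SD, n = 4). Nr1d2, the gene of REV-ERBbeta, stood at 97.7 ± 15.1, 90.4 ± 7.91 and 96.6 ± 14.9 TPM in the same order. The labels do not say which exons were deleted, so these totals do not check the knockout and DKO is used here as a label.

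TPM values are transcript abundances per length with an equal sum in every library. A gene was tested when its mean over all libraries was at least 1 TPM, which held for 17957 genes and all 9 members. The test was limma on log2(TPM + 1), and a gene was called at a Benjamini-Hochberg adjusted p under 0.05 over all tested genes. Livers labelled DKO had 2 members called higher than control livers and 0 called lower. Over all tested genes 5.33% were called in that comparison, 2.99% as higher and 2.34% as lower. Because the choice of members followed earlier results of these data, such counts beside shares are description and not a test. Re-expression livers had 0 members called against livers labelled DKO, where limma called 0.0724% of all tested genes, 0.0278% as higher and 0.0446% as lower. An unadjusted limma p under 0.05 held there for 3 members and for 1111 of the 17957 tested genes. Voom on recovered reads called 1 member there and 34 of all tested genes. Re-expression livers had 1 member called higher than control livers and 0 called lower, beside 1.82% of all tested genes called, 1.16% as higher and 0.663% as lower. The median log2 change of the 9 members was 0.04, 0.04 and 0.02 in these comparisons, beside 0.00, 0.01 and 0.01 over all tested genes. Each pair of these comparisons shares a group of livers. Groups that did not overlap were counted too. All livers labelled DKO lay above all control livers for 2 members and below them for 1, beside 6.13% and 5.40% of all tested genes (11.5% in either direction). All re-expression livers lay above all livers labelled DKO for 0 members and below them for 2, beside 2.09% and 2.16% (4.25%). All re-expression livers lay above all control livers for 3 members and below them for 0, beside 4.29% of all tested genes above (7.28% in either direction).

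**Figure D1:**
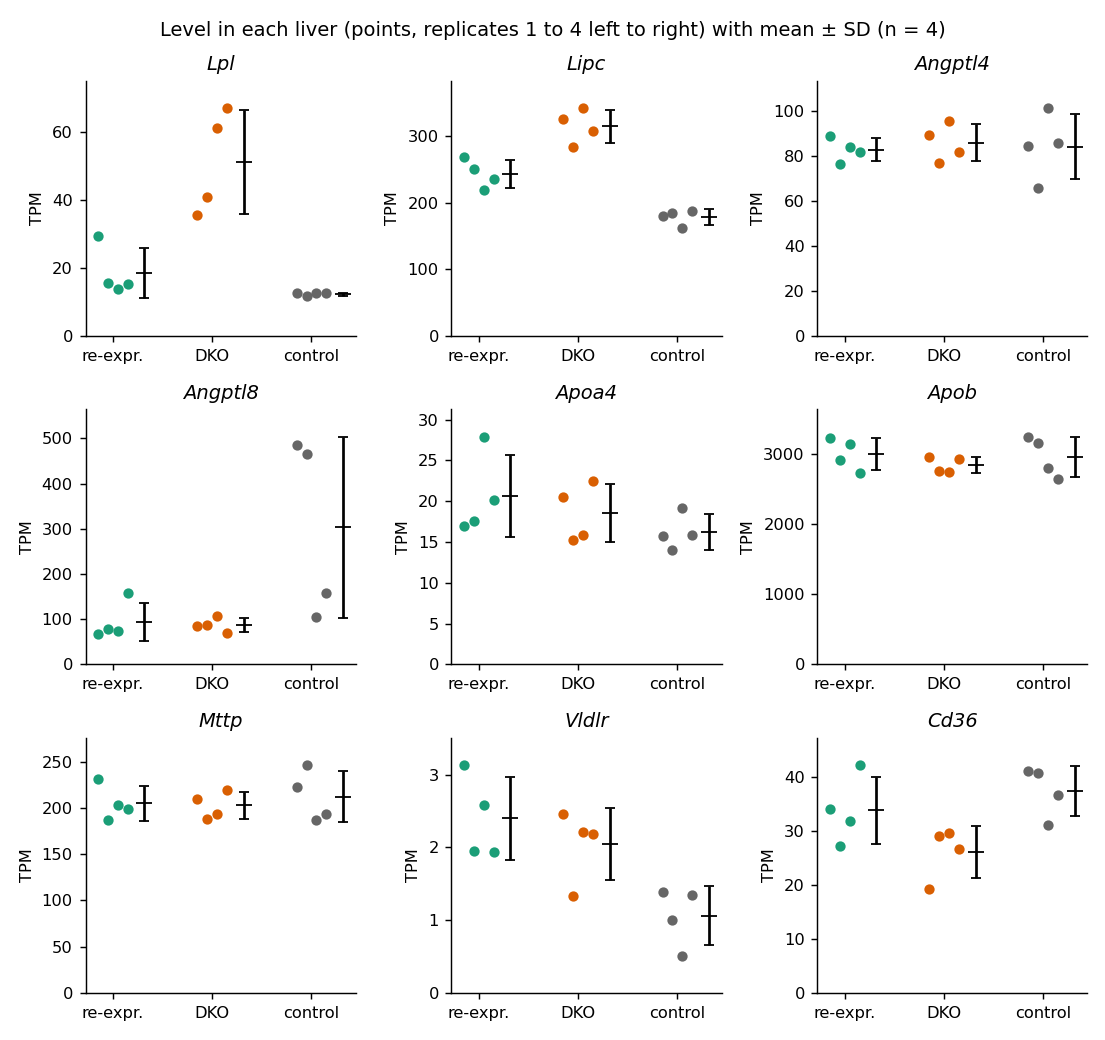
TPM of the 9 genes (vertical axes, from 0) in each of the 12 livers, by group: re-expression, DKO and control from left to right; points are livers and the bar at the right of each group is the mean ± SD (n = 4). Lpl lies between 35.4 and 66.9 TPM in livers labelled DKO, above all re-expression and control livers, while Apob and Mttp overlap across all groups.

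Expression of both lipase genes was highest in livers labelled DKO. Lpl encodes lipoprotein lipase, the enzyme that frees fatty acids from triglyceride in circulating lipoproteins; adult liver makes little of it next to fat and muscle. Lpl (ENSMUSG00000015568.16, chromosome 8, 68880491 to 68907448, plus strand, mm10) stood at 29.5, 15.5, 13.9 and 15.4 TPM in re-expression livers 1 to 4, at 35.4, 40.8, 61.0 and 66.9 TPM in livers labelled DKO, and at 12.5, 11.6, 12.5 and 12.5 TPM in control livers. The 3 groups did not overlap in any pair. These values rest on 364 to 707, 944 to 1533 and 281 to 308 reads per library in the same order. The control livers differed by at most 1.08-fold among themselves, whereas the livers labelled DKO spread 1.89-fold and the re-expression livers 2.12-fold. Lpl rose in livers labelled DKO by 1.92 ± 0.24 on the log2(TPM + 1) scale against control livers (SE, limma adjusted p = 0.000826), and this call was kept in all 20 alternatives (adjusted p from 2.4e-05 to 0.00693).

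For Lpl the mean was 18.6 ± 7.31 TPM in re-expression livers and 51.0 ± 15.3 TPM in livers labelled DKO (SD, n = 4), a log2 difference of -1.43 ± 0.24 (SE) that was not called (adjusted p = 0.0766, from 0.00413 to 0.26 over the alternatives). Every re-expression liver was below every liver labelled DKO, which was so for 2.16% of all tested genes in that direction. The difference was called without re-expression replicate 1 (log2 change -1.66, adjusted p = 0.0127) and with voom on recovered reads (-1.49, adjusted p = 0.00413). In the authors' deposited table, the comparison that matches this one gave Lpl a log2 fold change of -1.48 with an adjusted p of 2.12e-09. Against control livers the re-expression livers differed by 0.50 for Lpl, with a 95% confidence interval from -0.03 to 1.02 (adjusted p = 0.44), and by 0.26 without re-expression replicate 1. Exact two-sided permutation tests of single genes gave Lpl p = 0.0286 in each comparison, the smallest that 4 livers against 4 allow, and 0.0965 after Benjamini-Hochberg adjustment over the 27 tests of members.

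Lpl is also expressed by macrophages and by other non-parenchymal cells, so marker levels of these cells were set beside it. The 11 Kupffer cell and macrophage markers summed to 362 to 1179 TPM in re-expression livers, 438 to 530 TPM in livers labelled DKO and 418 to 1066 TPM in control livers, and 0 of 9 tested ones were called in any comparison. Re-expression replicate 1, the re-expression liver with the most Lpl, held the highest sum of all 12 livers. Its Marco, a scavenger receptor gene of Kupffer cells, stood at 231 TPM, against 12.4 to 34.1 TPM in the other re-expression livers. Not all markers of the list were high in that liver. Its Clec4f stood at 41.7 TPM, against 92.4 to 98.7 TPM in the other re-expression livers. Control replicate 1 had the next highest sum, 1066 TPM, and its Lpl of 12.5 TPM lay within the 11.6 to 12.5 TPM of the control livers.

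The 9 sinusoidal endothelium markers summed to 165 to 266 TPM in re-expression livers, 261 to 319 TPM in livers labelled DKO and 217 to 242 TPM in control livers. None of the 9 was called in any comparison, although 6 had all livers labelled DKO above all control livers, as had 6.13% of all tested genes. DKO replicates 3 and 4, which had the most Lpl, also had the highest endothelial sums, at 317.5 and 319 TPM, and DKO replicates 1 and 2 stood at 261 and 272 TPM. The sum was 0.36 higher on the log2 scale in livers labelled DKO than in control livers, a smaller difference than that of Lpl (exact permutation p = 0.0286, adjusted over 21 tests of marker sums p = 0.3). The 8 stellate cell and fibroblast markers also differed between livers labelled DKO and control livers, by 0.55 in their sum (exact permutation p = 0.0286, adjusted p = 0.3), and 4 of them were called higher, as were 2.99% of all tested genes. The part of these cell types in the level of Lpl was not tested. In bulk RNA, fewer cells of a type and less RNA per cell cannot be told apart.

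Fat tissue expresses far more Lpl than liver. Of 7 adipocyte markers Adipoq and Lep had 0 reads in all 12 livers. The list summed to 694 to 1747 TPM in re-expression livers, 1192 to 1696 TPM in livers labelled DKO and 829 to 2105 TPM in control livers, nearly all of it from Car3, which hepatocytes express too. Without Car3, a choice made after seeing the data, the sum was 3.46 to 5.75 TPM in re-expression livers, 2.57 to 5.36 TPM in livers labelled DKO and 4.06 to 6.53 TPM in control livers. Most of this remainder was 1 gene, Adrb3. It stood at 3.46 to 5.75 TPM in re-expression livers, 1.83 to 5.36 TPM in livers labelled DKO and 4.06 to 5.90 TPM in control livers.

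**Figure D2:**
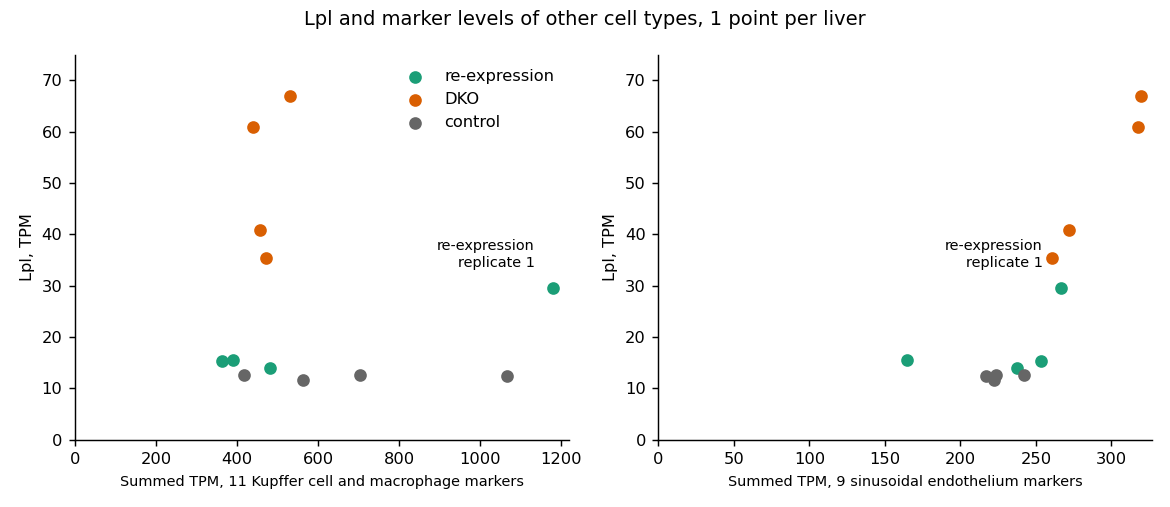
Lpl in TPM (vertical axis) against the summed TPM of 11 Kupffer cell and macrophage markers (left) and of 9 sinusoidal endothelium markers (right), 1 point per liver, coloured by group. Re-expression replicate 1 stands at 1179 TPM of Kupffer cell and macrophage markers with 29.5 TPM of Lpl, and the livers labelled DKO lie between 438 and 530 TPM.

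Lipc encodes hepatic lipase, which hepatocytes secrete and which acts on remnants and high density lipoprotein. Lipc (ENSMUSG00000032207.10, chromosome 9, 70798128 to 70952226 on the minus strand) measured 268, 251, 219 and 236 TPM in re-expression livers, at 326, 284, 342 and 308 TPM in livers labelled DKO, and at 180, 185, 163 and 189 TPM in control livers. Again the groups did not overlap in any pair, with the re-expression livers between the other groups. Lipc was 0.81 ± 0.08 higher in livers labelled DKO than in control livers (SE, adjusted p = 0.000177), a call kept in all 20 alternatives. Its difference between re-expression livers and livers labelled DKO was -0.37 ± 0.08 (SE, adjusted p = 0.183, from 0.0913 to 0.48 over the alternatives) and was not called. In the authors' deposited table the matching comparison gave Lipc a log2 fold change of -0.39 with an adjusted p of 0.00403.

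Against control livers, Lipc was 0.44 ± 0.08 higher in re-expression livers (SE, adjusted p = 0.0182, with alternatives between 0.00873 and 0.06). It was no longer called without re-expression replicate 1 (adjusted p = 0.0502), 2 (0.06) or 4 (0.0501), without control replicate 3 (0.0523), with the replicate number as a block (0.056) and with only the 8 libraries compared (0.0563). Gm25149, a miRNA gene model on the same strand, and Gm3436 and Gm32017 on the opposite strand lie within the span of Lipc. The strand setting of the counting was not among the details given.

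REV-ERB binds a core of AGGTCA with an A and T rich flank, and promoter sequences are shown for the 3 members with a window that holds such a core or its variant GGGTCA. RefSeq promoter windows (GRCm38.p6, 250 bases before to 50 after a start) were matched for 7 of the 9 members, in 9 windows; Lpl and Angptl4 were not searched. Capitals mark AGGTCA or GGGTCA on either strand, and a match on the opposite strand reads TGACCT or TGACCC.
Lipc at the gene's 5′ end (chr9:70952172-70952471, minus strand): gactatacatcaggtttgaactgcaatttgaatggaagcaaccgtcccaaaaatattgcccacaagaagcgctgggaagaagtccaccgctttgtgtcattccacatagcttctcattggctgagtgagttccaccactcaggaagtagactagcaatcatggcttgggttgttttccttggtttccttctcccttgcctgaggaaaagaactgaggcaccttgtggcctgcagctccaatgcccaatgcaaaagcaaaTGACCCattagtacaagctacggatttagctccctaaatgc
Lipc within the gene (chr9:70934759-70935058, minus strand): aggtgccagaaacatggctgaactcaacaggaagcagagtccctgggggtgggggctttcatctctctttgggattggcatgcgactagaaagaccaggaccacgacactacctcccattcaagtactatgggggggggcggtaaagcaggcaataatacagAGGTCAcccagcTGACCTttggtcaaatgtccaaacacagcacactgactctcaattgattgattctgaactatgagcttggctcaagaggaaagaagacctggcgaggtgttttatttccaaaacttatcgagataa
Angptl8 (chr9:21835260-21835559, plus strand): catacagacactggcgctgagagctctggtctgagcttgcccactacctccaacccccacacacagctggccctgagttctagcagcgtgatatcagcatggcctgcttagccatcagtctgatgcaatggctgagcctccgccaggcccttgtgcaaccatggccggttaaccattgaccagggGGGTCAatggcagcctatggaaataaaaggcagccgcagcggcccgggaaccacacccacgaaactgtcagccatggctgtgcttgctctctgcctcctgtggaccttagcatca
Cd36 (chr5:17835847-17836146, minus strand): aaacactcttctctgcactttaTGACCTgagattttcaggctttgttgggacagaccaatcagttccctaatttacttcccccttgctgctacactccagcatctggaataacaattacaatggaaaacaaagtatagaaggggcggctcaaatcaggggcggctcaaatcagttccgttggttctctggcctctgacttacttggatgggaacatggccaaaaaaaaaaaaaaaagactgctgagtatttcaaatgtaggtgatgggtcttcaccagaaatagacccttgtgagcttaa
Of the 9 windows 4 held AGGTCA or GGGTCA, and these are the 4 shown; over all 32851 RefSeq windows 27.5% held either. AGGTCA was in 2 of the 9 windows and in 16.3% of all, and GGGTCA in 2 of the 9 and in 13.7% of all. The window inside Lipc held AGGTCA on each strand. The longer form, AANT followed directly by AGGTCA, was in none of the 9 windows and in 0.219% of all. The E-box CACGTG was also in none of the 9 and in 7.15% of all. These are matches of letters, not binding sites, and gene totals do not separate transcripts from the Lipc starts.

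Neither inhibitor of lipoprotein lipase was called in any comparison. Angptl8 is made by liver and fat and is strongly induced by feeding. Angptl8 (ENSMUSG00000047822.8, chromosome 9, 21835510 to 21837347, plus strand) stood at 66.9, 77.7, 74.2 and 157 TPM in re-expression livers, at 84.6, 86.2, 108 and 69.4 TPM in livers labelled DKO, and at 485, 466, 105 and 158 TPM in control livers. Control replicates 1 and 2 were far above all other livers, while control replicate 3 lay within the range of the other groups and control replicate 4 just above their highest liver. Control replicates 1 and 2 also had more recovered reads, 6479312 and 6830565, than control replicates 3 and 4, with 5640091 and 5621667.

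Angptl8 averaged 87.0 ± 15.9 TPM in livers labelled DKO and 304 ± 200.1 TPM in control livers (SD, n = 4). The log2 difference of -1.52 ± 0.46 was not called (SE, adjusted p = 0.0903, from 0.0242 to 0.218 over the alternatives), but was without control replicate 3 (-1.93, adjusted p = 0.0242) and with voom on recovered reads (-1.54, adjusted p = 0.0352). In the authors' deposited table the matching comparison gave Angptl8 a log2 fold change of -1.76 with an adjusted p of 0.0428. Re-expression livers averaged 94.0 ± 42.5 TPM. They differed from livers labelled DKO by 0.04 for Angptl8, with a 95% confidence interval from -0.97 to 1.04, and this difference turned to -0.24 without re-expression replicate 4 and -0.06 without DKO replicate 4. Against control livers the difference of re-expression livers was -1.48 ± 0.46 (SE, adjusted p = 0.162).

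Angptl8 lies within Dock6, a gene on the opposite strand that encodes a regulator of small GTPases. Dock6 stood at 7.96 ± 1.04 TPM in re-expression livers, 7.77 ± 0.0895 TPM in livers labelled DKO and 9.63 ± 2.18 TPM in control livers (SD, n = 4), with no call in any comparison (adjusted p from 0.375 to 1). Its highest value, 12.7 TPM, was in control replicate 4, and control replicates 1 and 2 stood at 8.59 and 7.67 TPM. Whether reads of Dock6 enter the totals of Angptl8 was not tested.

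Angptl4, a fasting-induced inhibitor of lipoprotein lipase and a classic target of the PPAR receptors, showed no called difference. Angptl4 (ENSMUSG00000002289.16, chromosome 17, 33773750 to 33781830, minus strand) ranged from 76.2 to 88.6 TPM in re-expression livers, from 76.7 to 95.4 TPM in livers labelled DKO and from 65.7 to 101 TPM in control livers. All 3 groups overlapped. Its log2 difference between livers labelled DKO and control livers was 0.04, with a 95% confidence interval from -0.22 to 0.30. Between re-expression livers and livers labelled DKO it was -0.05 (-0.31 to 0.21), and its sign turned without DKO replicate 3.

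**Figure D3:**
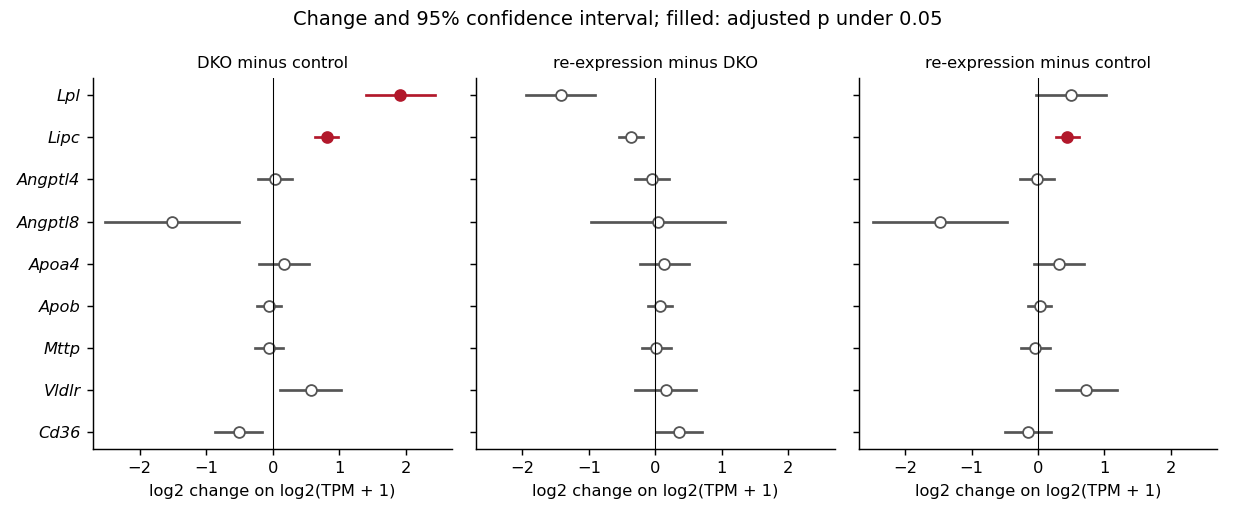
Change of the 9 genes on the log2(TPM + 1) scale (horizontal axes) with its 95% confidence interval, in the 3 comparisons; filled points have an adjusted p under 0.05. Lpl and Lipc are the filled points in livers labelled DKO against control livers, Lipc alone is filled in re-expression against control livers, and the interval of Angptl8 spans about -0.97 to 1.04 in re-expression livers against livers labelled DKO.

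Apob and Mttp, whose products build the VLDL particle, were expressed at high level, with differences near 0. Apob encodes the structural protein of VLDL and remnants. Apob (ENSMUSG00000020609.14, chromosome 12, 7977648 to 8016835, plus strand) stood at 2999 ± 224 TPM in re-expression livers, 2844 ± 113 TPM in livers labelled DKO and 2957 ± 284 TPM in control livers (SD, n = 4), on 79363 to 110024 reads per library. Its log2 difference between livers labelled DKO and control livers was -0.05, with a 95% confidence interval from -0.23 to 0.13, and 0.03 with quantile normalization. Re-expression livers differed from livers labelled DKO by 0.07 (-0.10 to 0.25).

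Mttp encodes the transfer protein that loads lipid onto apolipoprotein B. Mttp (ENSMUSG00000028158.14, chromosome 3, 138089854 to 138144968, minus strand) ranged from 187 to 232 TPM in re-expression livers, from 188 to 220 TPM in livers labelled DKO and from 187 to 246 TPM in control livers. The ranges nearly coincide. Its log2 difference between livers labelled DKO and control livers was -0.06, with a 95% confidence interval from -0.27 to 0.16, and 0.02 without control replicate 2. The span of Mttp overlaps Trmt10a and Gm43691 on the opposite strand.

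Apoa4 encodes an apolipoprotein of chylomicrons and high density lipoprotein that intestine and, in the mouse, liver secrete. Apoa4 (ENSMUSG00000032080.6, chromosome 9, 46240696 to 46243459, plus strand) stood at 17.0, 17.5, 27.9 and 20.1 TPM in re-expression livers, at 20.5, 15.3, 15.9 and 22.5 TPM in livers labelled DKO, and at 15.7, 14.0, 19.2 and 15.9 TPM in control livers. All groups overlapped, on 56 to 115 reads per library. Its log2 differences were 0.18 ± 0.17 in livers labelled DKO against control livers (SE, adjusted p = 0.659) and 0.31 ± 0.17 in re-expression livers against control livers (SE, adjusted p = 0.511). The first was 0.082 without DKO replicate 4 and 0.11 without control replicate 2, and the second was 0.17 without re-expression replicate 3. Gm47528 and Gm10680 overlap it on the opposite strand.

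Neither uptake receptor was called, and in livers labelled DKO against control livers the difference was positive for Vldlr and negative for Cd36. Vldlr encodes the VLDL receptor, which binds triglyceride-rich lipoproteins mainly outside the liver. Vldlr (ENSMUSG00000024924.14, chromosome 19, 27216484 to 27254231, plus strand) stood at 3.13, 1.96, 2.58 and 1.93 TPM in re-expression livers, at 2.46, 1.34, 2.21 and 2.18 TPM in livers labelled DKO, and at 1.39, 1.00, 0.509 and 1.34 TPM in control livers. It rested on 11 to 72 reads per library. All re-expression livers were above all control livers, and DKO replicate 2 overlapped the control livers. On the log2(TPM + 1) scale, which understates changes of genes at this level, Vldlr differed by 0.57 ± 0.21 in livers labelled DKO against control livers (SE, adjusted p = 0.166) and by 0.73 ± 0.21 in re-expression livers against control livers (SE, adjusted p = 0.128). With voom on recovered reads these differences were 1.00 (adjusted p = 0.0482) and 1.21 (adjusted p = 0.0258), both called. In the authors' deposited table the comparison that matches DKO against control gave Vldlr a log2 fold change of 0.95 with an adjusted p of 0.0212.

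Cd36 encodes a fatty acid translocase and scavenger receptor found on hepatocytes, macrophages and endothelium. Cd36 (ENSMUSG00000002944.15, chromosome 5, 17781690 to 17888801 on the minus strand) measured 34.0, 27.2, 31.8 and 42.2 TPM in re-expression livers, at 19.2, 29.1, 29.5 and 26.7 TPM in livers labelled DKO, and at 41.2, 40.7, 31.1 and 36.7 TPM in control livers. All livers labelled DKO were below all control livers, as were 5.40% of all tested genes, and the re-expression livers overlapped both. Its log2 difference in livers labelled DKO against control livers was -0.51 ± 0.16 (SE, adjusted p = 0.1), and it was called with voom on recovered reads (-0.53, adjusted p = 0.0488). In the authors' deposited table the matching comparison gave Cd36 a log2 fold change of -0.51 with an adjusted p of 0.094. Re-expression livers differed from livers labelled DKO by 0.36 ± 0.16 (SE, adjusted p = 0.787) for Cd36.

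Re-expression replicate 4, the re-expression liver with the most Cd36 and Angptl8, also held skeletal muscle RNA. Its 6 muscle markers summed to 38.7 TPM, against 1.43 to 3.30 TPM in the other re-expression livers, 2.64 to 4.12 TPM in livers labelled DKO and 1.93 to 3.67 TPM in control livers. Lpl, which muscle expresses strongly, stood at 15.4 TPM in that liver, within 13.9 to 15.5 TPM of re-expression replicates 2 and 3. Without re-expression replicate 4 the difference of Cd36 between re-expression livers and livers labelled DKO was 0.25, and without DKO replicate 1 it was 0.23. The part of muscle RNA in Lpl, Cd36 and Angptl8 was not tested.

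Profiles over the 12 livers were compared by the root mean square difference of log2(TPM + 1) values centred on each gene's mean, for the called members Lpl and Lipc. The named genes nearest to Lpl, whose own root mean square deviation was 0.88, were Gstm6 at 0.46, Hectd2os at 0.48 and Hsd17b6 at 0.48. Gstm6, a glutathione transferase gene, averaged 167 ± 33.4 TPM in re-expression livers, 257 ± 20.5 TPM in livers labelled DKO and 108 ± 17.9 TPM in control livers (SD, n = 4). The genes nearest to Lipc, with its own deviation of 0.35, were Mfsd4b1 at 0.09, Gstm2-ps1 at 0.12 and Reln at 0.14. Reln, a stellate cell gene of the marker list, averaged 40.2 ± 5.85 TPM in re-expression livers, 45.5 ± 2.62 TPM in livers labelled DKO and 26.4 ± 4.58 TPM in control livers (SD, n = 4).

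Other genes of lipoprotein and fatty acid handling were read from 7 lists of 84 genes, of which 83 were tested. The lists, like the members, were chosen with earlier results of these data known, so their counts are description only. In livers labelled DKO against control livers 4 were called higher and 5 lower, beside 2.99% and 2.34% of all tested genes. In re-expression livers against livers labelled DKO 0 were called, beside 0.0724%. In re-expression livers against control livers 3 were called higher and 0 lower, beside 1.16% and 0.663%. The same shares stand beside the counts of each list. Their median log2 changes were -0.03, 0.02 and 0.02. Of 8 other lipase and lipid transfer genes 1 was called higher and 2 lower in livers labelled DKO. Lipg, the gene of endothelial lipase and the closest relative of Lpl and Lipc, went opposite to them. It stood at 11.96, 5.55, 8.25 and 10.6 TPM in re-expression livers, at 2.31, 2.92, 5.40 and 2.58 TPM in livers labelled DKO, and at 19.7, 29.8, 19.5 and 11.4 TPM in control livers. All livers labelled DKO were below all others. Lipg fell by 2.28 ± 0.30 in livers labelled DKO against control livers (SE, adjusted p = 0.00125), kept in all 20 alternatives, and differed by 1.23 ± 0.30 in re-expression livers against livers labelled DKO (SE, adjusted p = 0.26), which was not called.

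**Figure D4:**
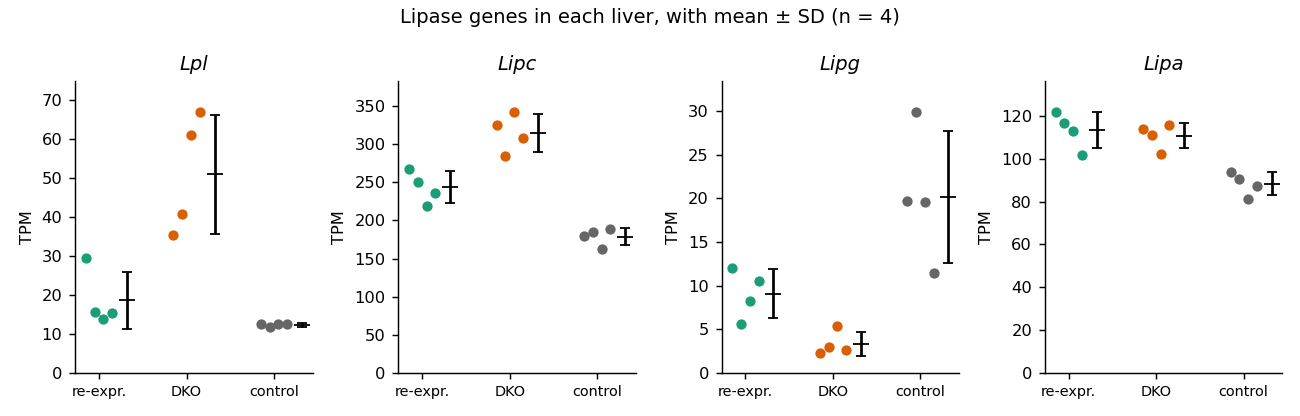
TPM (vertical axes, from 0) of the lipase genes Lpl, Lipc, Lipg and Lipa in each liver, with re-expression, DKO and control groups from left to right and the mean ± SD (n = 4) at the right of each group. Livers labelled DKO are the highest for Lpl and Lipc and the lowest for Lipg.

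Ces1d, a carboxylesterase gene linked to release of stored triglyceride for VLDL, stood at 1102 ± 175 TPM in re-expression livers, 731 ± 90.7 TPM in livers labelled DKO and 1367 ± 224 TPM in control livers (SD, n = 4). It fell by 0.89 ± 0.14 in livers labelled DKO against control livers (SE, adjusted p = 0.00416). Lipa, the gene of lysosomal acid lipase, stood at 113 ± 8.43 TPM in re-expression livers, 111 ± 5.83 TPM in livers labelled DKO and 88.3 ± 5.31 TPM in control livers. It was called higher in livers labelled DKO (0.32, adjusted p = 0.0251) and in re-expression livers (0.35, adjusted p = 0.0306), each against control livers. The first of these calls was lost without DKO replicate 1, 2 or 4 or control replicate 3 or 4 (adjusted p from 0.0502 to 0.0794) and with only the 8 libraries compared (0.0504). The second was lost without re-expression replicate 1, 2 or 3, DKO replicate 2 or control replicate 2, 3 or 4 (adjusted p from 0.0515 to 0.092) and with only the 8 libraries compared (0.101).

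Of 14 cofactors and partners of lipoprotein lipase and of a list of 11 apolipoprotein genes and Apobec1, which edits Apob mRNA, 0 were called in any comparison. Gpihbp1, whose product anchors lipoprotein lipase on capillaries, stood at 11.3 ± 3.11 TPM in re-expression livers, 17.0 ± 3.75 TPM in livers labelled DKO and 11.1 ± 1.44 TPM in control livers (SD, n = 4), a log2 difference of 0.55 in livers labelled DKO against control livers (adjusted p = 0.158). The summed sinusoidal endothelium markers were also higher in that comparison, by 0.36. The part of endothelial cells in the level of Gpihbp1 was not tested. Apoc3, the gene of an inhibitor of triglyceride clearance, differed by 0.31 (adjusted p = 0.113), Apoh by 0.24 (adjusted p = 0.172) and Apoa1 by 0.38 (adjusted p = 0.185) in that comparison. Of 14 genes of VLDL assembly and export 1 was called higher in livers labelled DKO against control livers, Pla2g12b, which is needed in mouse liver to load VLDL with lipid. It stood at 107 ± 12.2 TPM in livers labelled DKO and 80.4 ± 7.3 TPM in control livers (adjusted p = 0.0281), and this call was lost without DKO replicate 1, 2 or 3 or control replicate 1 or 2 (adjusted p from 0.0656 to 0.0786), with size factors (0.0671), with the replicate block (0.052) and with only the 8 libraries compared (0.085).

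Of 11 tested lipoprotein receptor genes and their regulators 0 were called in any comparison. Of 13 genes of fatty acid uptake and binding 1 was called, Acsl1, which activates fatty acids to acyl-CoA. Acsl1 stood at 580 ± 48.5 TPM in re-expression livers, 577 ± 121 TPM in livers labelled DKO and 340 ± 47.6 TPM in control livers (SD, n = 4). It was 0.75 ± 0.14 higher in livers labelled DKO (SE, adjusted p = 0.00952) and 0.78 ± 0.14 higher in re-expression livers (SE, adjusted p = 0.0154) than in control livers. The second call was lost without re-expression replicate 2 (adjusted p = 0.0507) or 4 (0.054) or control replicate 3 (0.0503) and with the replicate block (0.0537).

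The last list held 16 transcription factors for which genes of this pathway are known targets, among them the PPAR receptors, which act on Lpl, Angptl4, Cd36 and Vldlr in several tissues. In livers labelled DKO against control livers 1 was called higher and 3 lower. Ppard stood at 3.57, 7.46, 4.56 and 6.95 TPM in re-expression livers, at 14.6, 14.0, 13.1 and 12.6 TPM in livers labelled DKO, and at 2.05, 2.55, 3.25 and 2.38 TPM in control livers. No groups overlapped. Ppard rose by 2.04 ± 0.19 in livers labelled DKO against control livers (SE, adjusted p = 9.56e-05), kept in all 20 alternatives. It differed by -1.18 ± 0.19 in re-expression livers against livers labelled DKO (SE, adjusted p = 0.0621), which was called without re-expression replicate 2 (0.0462) and with voom (0.0022).

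Ppara stood at 210 ± 21.3 TPM in re-expression livers, 160 ± 8.76 TPM in livers labelled DKO and 256 ± 8.5 TPM in control livers (SD, n = 4). It fell by 0.67 ± 0.08 in livers labelled DKO against control livers (SE, adjusted p = 0.000394). Nr1h4, the gene of the bile acid receptor FXR, fell by 0.52 in that comparison (adjusted p = 0.0173, but 0.0507 without DKO replicate 1). Pparg fell by 0.70 (adjusted p = 0.0379), but 13 of 20 alternatives did not call it, including the fits that left out any re-expression liver, DKO replicate 1, 2 or 4 or control replicate 1, 2 or 4 (adjusted p from 0.0519 to 0.103). In re-expression livers against control livers Ppard was called higher (0.87, adjusted p = 0.0435), but 16 of 20 alternatives did not call it, including each fit that left out 1 library other than re-expression replicate 1 (adjusted p from 0.0527 to 0.131).

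**Figure D5:**
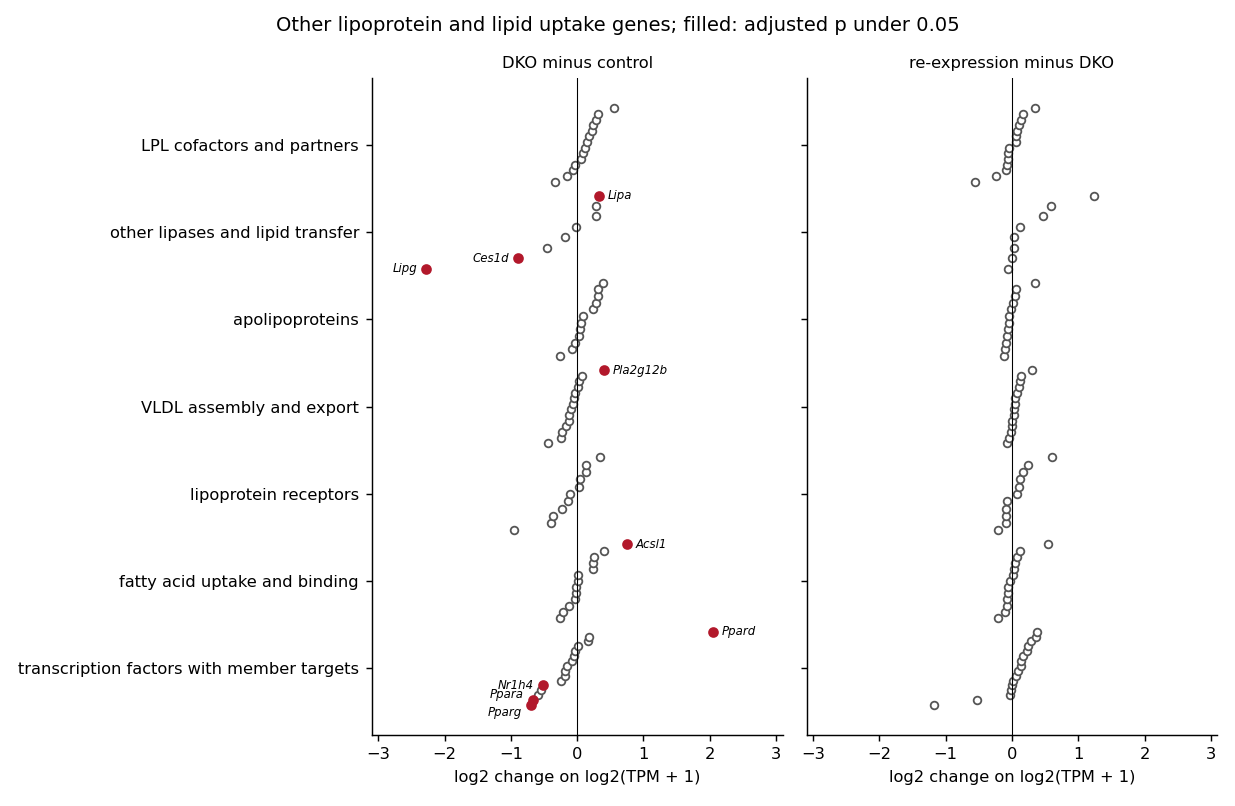
Log2 change on log2(TPM + 1) (horizontal axes) of the tested genes of 7 lists in livers labelled DKO against control livers (left) and in re-expression livers against livers labelled DKO (right); each point is a gene and filled points have an adjusted p under 0.05. The filled points at left are 4 higher and 5 lower genes, and there are 0 at right.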

How the data were processed

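Libraries were made from 1 microgram of Trizol-extracted total RNA of each frozen liver with a strand-keeping kit, according to the labels' protocols. The submitters' processing notes list DESeq2 1.36.0, featureCounts 2.0.1, SAMtools 1.9, STAR 2.7.1a and bcl2fastq 2.17, and the build mm10. The TPM values were computed by the authors and sum to the same total in each library. The authors' log2 fold changes and p-values for 3 numbered comparisons were deposited beside them, with a score (Wald statistic) that was not used. The comparisons are not named per the file headers. Another 3 deposited columns, means over libraries by their headers, were not used. Across tested genes the first and second had Pearson r of 0.936 and 0.916 with the fitted changes of livers labelled DKO against control livers and of re-expression livers against livers labelled DKO (genes are not independent replicates). The last matched none and was not used. Columns were matched to samples by name, with Cre taken as DKO.

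Each TPM times the gene length less 199 bases came out as whole reads, to within 0.01 reads, for 100% of values once divided by a constant of each library, which gave the depth. Means of the 3 groups were fitted with limma 3.58.1 (R 4.3.3) on log2(TPM + 1) over all libraries, two-sided, with 9 residual degrees of freedom and a variance trend. Exact permutation tests (scipy 1.17.1) compared single values. The labels call each library a biological replicate liver, and p-values measure the spread between livers. On simulated reads for livers labelled DKO against control livers, over 17337 genes, 35% of the 2-fold changes and 81% of the 4-fold changes were called. The simulation left 17137 genes unchanged and gave every gene the same spread between livers beyond counting noise. Real genes differ in spread, so these shares need not hold for the real livers. Members and lists were chosen with earlier results of these data known. The text names the members, at most 4 genes per list by smallest p, and the 3 nearest named profiles of each called member. Positions are from GENCODE M21 on mm10. The labels do not say whether equal replicate numbers pair livers, and the main fit did not pair them. Correlations of same-numbered deviations ran from -0.0688 to 0.137, and from 0.0384 to 0.137 for re-expression against control. They do not settle whether livers were paired or shared a batch. Alternatives were other pseudocounts, filters and scalings, a replicate block, only the 8 libraries compared, voom on recovered reads, and each library left out in turn.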

Additional observations from a re-analysis of the deposited data

Results flagged for a closer look

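A liver was singled out where its gap to the nearest liver of its group, divided by the group's range, exceeded Dixon's 95% critical value. This was examined in 48 groups of 4 values, and chance gives about 1 in 20. In 6 groups a liver stood apart. Lpl was 29.5 TPM in re-expression replicate 1, the highest of its group, and 11.6 TPM in control replicate 2, the lowest of a group that spread only 1.08-fold. Angptl8 was 157 TPM in re-expression replicate 4, above the 66.9 to 77.7 TPM of the others. The Kupffer cell and macrophage markers summed to 1179 TPM in re-expression replicate 1, and the 6 intestinal epithelium markers, of which liver expresses Fabp2 and Lgals4, summed to 179 TPM in the same liver. The skeletal muscle markers summed to 38.7 TPM in re-expression replicate 4. Whether the high Lpl of re-expression replicate 1 comes with its macrophage markers was not tested.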

How the results depend on the processing

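Of 27 results on members 11 kept direction and call in all alternatives, among them the higher Lpl and Lipc in livers labelled DKO against control livers. With voom on recovered reads 5, 1 and 2 members were called in the 3 comparisons (DKO against control, re-expression against DKO, re-expression against control), beside 2, 0 and 1. Voom called 1227 of all tested genes in DKO against control, beside 958 without it. With the replicate block and with only the 8 libraries compared, 0 members were called in re-expression against control. No other call of a member changed with the block. Leaving out 1 library gave 2 to 3, 0 to 1 and 0 to 1 members.

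Over all tested genes 958, 13 and 327 were called. The replicate block gave 8 for re-expression against DKO and 209 for re-expression against control. In the 3 comparisons voom gave 1227, 34 and 537, and the 8 libraries 559, 20 and 162. Leaving out 1 library gave 573 to 922, 5 to 15 and 175 to 332. Counts fell by over 1.5 times without DKO replicate 1 (600), 2 (623) or 4 (573) or control replicate 1 (637) in DKO against control, without each DKO library in turn and without re-expression replicate 3 or 4 in re-expression against DKO (5 to 7), and without re-expression replicate 2 (215) or 4 (175) in re-expression against control. For re-expression against DKO, 5 genes were higher and 8 lower, and 7 and 7 with quantile normalization.

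Signs that turned were of differences that were not called. Apob in livers labelled DKO against control livers was 0.025 with quantile normalization, and Mttp in re-expression livers against livers labelled DKO was -0.0043 with size factors and -0.0042 with voom. Leaving out 1 library gave, for DKO against control, Angptl4 -0.072 to 0.13 and Mttp -0.11 to 0.018; for re-expression against DKO, Angptl4 -0.10 to 0.0024, Angptl8 -0.24 to 0.17, Apoa4 -0.010 to 0.23, Mttp -0.047 to 0.055, Lipa -0.0053 to 0.081, Acsl1 -0.043 to 0.16 and Apoa1 -0.10 to 0.062; for re-expression against control, Angptl4 -0.12 to 0.083, Apob -0.030 to 0.068, Mttp -0.10 to 0.031, Pltp -0.10 to 0.11 and Gpihbp1 -0.11 to 0.19. The causes were not tested. Depth limits Vldlr most among the members, with 11 reads in control replicate 3.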
